A study of Mus musculus with 4 samples.

Results

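The cytosolic heat shock protein genes examined here are 10 genes taken by their symbols from a table of 24328 gene symbols: Hspa1a, Hspa1b, Hspb1, Dnajb1, Hsph1, Hspa8, Hsp90aa1, Hsp90ab1, Bag3 and Hsf1. All 10 were found, and all 10 stood above 1 FPKM (fragments per kilobase of transcript, scaled to sequencing depth) in each of the 4 libraries, so none of them depended on one group to enter the test. RNA labelled as polyadenylated had been sequenced from muscle stem cells (satellite cells) sorted from skeletal muscle of mice whose tissue was fixed by paraformaldehyde perfusion. The YFP group (2 libraries) came from Pax7CreERT2/+; ROSA26YFP/+ mice aged 7 months. The DEK group (2 libraries) came from Pax7CreERT2/+; H11DEK-EGFP/+ mice aged 4.5 months. Both groups thus carried 1 Pax7CreERT2 allele, a tamoxifen-inducible Cre that acts in cells expressing Pax7, and both were fixed. Age, reporter and transgene locus differed together between the groups and cannot be told apart. The labels do not say whether the libraries are separate animals or how many animals each holds, so the p-values given here speak only of how these libraries spread, and that spread may be technical.

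Heat shock proteins are chaperones that bind unfolded or newly made proteins and help them fold, or hand them on for degradation. HSP70 proteins work with J-domain partners and nucleotide exchange factors, HSP90 proteins finish the folding of kinases and hormone receptors, and small heat shock proteins hold unfolded clients. Some copies are made at all times (Hspa8, Hsp90ab1). Others are switched on when the transcription factor HSF1 is freed by unfolded protein (Hspa1a, Hspa1b, Hspb1, Dnajb1, Hsph1, Hsp90aa1 and Bag3).

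Hspa1a and Hspa1b, the inducible HSP70 copies, are close to identical in their promoters, and HSF1 binds inverted repeats of GAA. RefSeq promoter windows (build GRCm38.p6, while the expression values were made on mm9 and carry no coordinates) were held for 6 of the 10 genes: Hspa1a, Hspa1b, Hspb1, Dnajb1, Hsph1 and Bag3. The 250 bases upstream of the most upstream listed start were searched for GAANNTTC and TTCNNGAA, which each read the same on both strands and may overlap, chosen after the sequences were seen, and for the longer heat shock element of 3 such units in alternating orientation. The following 4 windows hold a match, shown in capitals. They lie at chr17:34972157-34972406 (Hspa1a, minus strand), chr17:34959239-34959488 (Hspa1b, minus strand), chr5:135887669-135887918 (Hspb1, plus strand) and chr5:149636337-149636586 (Hsph1, minus strand), and are written 5′ to 3′.
Hspa1a: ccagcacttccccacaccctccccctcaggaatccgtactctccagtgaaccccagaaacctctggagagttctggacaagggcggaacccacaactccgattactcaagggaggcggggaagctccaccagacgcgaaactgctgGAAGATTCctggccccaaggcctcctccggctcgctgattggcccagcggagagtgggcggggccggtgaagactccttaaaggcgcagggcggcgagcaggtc
Hspa1b: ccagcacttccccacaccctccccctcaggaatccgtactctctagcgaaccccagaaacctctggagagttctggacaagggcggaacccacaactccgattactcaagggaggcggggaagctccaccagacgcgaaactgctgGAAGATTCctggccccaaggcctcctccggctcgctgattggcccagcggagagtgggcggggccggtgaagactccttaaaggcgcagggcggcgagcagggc
Hspb1: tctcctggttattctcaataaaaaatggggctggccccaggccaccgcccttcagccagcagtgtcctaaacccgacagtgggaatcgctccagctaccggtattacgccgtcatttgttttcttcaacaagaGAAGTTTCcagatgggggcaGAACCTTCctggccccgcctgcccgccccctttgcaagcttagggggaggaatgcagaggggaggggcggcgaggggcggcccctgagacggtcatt
Hsph1: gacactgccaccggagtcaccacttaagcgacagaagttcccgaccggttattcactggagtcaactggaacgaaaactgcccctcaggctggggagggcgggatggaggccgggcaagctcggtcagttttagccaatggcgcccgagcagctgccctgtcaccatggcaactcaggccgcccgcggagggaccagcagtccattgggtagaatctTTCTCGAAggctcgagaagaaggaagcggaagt
The Hspa1a and Hspa1b windows differ at 3 of 250 bases, and in both a single GAANNTTC begins 104 bases before the start. Hspb1 holds GAANNTTC at 117 and 97 bases before its start, and Hsph1 holds TTCNNGAA at 33 bases. None of the windows examined for the 6 genes holds the 3-unit element. It occurs in 0.466% of the 32817 promoter windows of this length, while 12.8% hold GAANNTTC or TTCNNGAA (6.69% and 7.16%). In the Dnajb1 and Bag3 windows examined these letters are not found. Dnajb1 and Hsph1 have 2 listed windows each, and the less upstream one was not examined for either gene. A match is a description of letters, not evidence of binding.

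Across the 4 libraries the column totals ran from 541183 to 545123 FPKM. The depth in reads is unknown because the table holds no counts. Dek, the gene carried by the transgene, measured 512 and 504 FPKM in YFP, against 3196 and 1639.5 FPKM in DEK replicates 1 and 2 (limma log2 fold change 2.17, SE 0.31, adjusted p = 0.0195), and its adjusted p was 0.109 or 0.150 when the first or the second YFP library was left out and 0.0798 when DEK replicate 1 was. Rn45s, a precursor of ribosomal RNA, made up 11.8% and 15.7% of all FPKM in YFP against 5.15% and 5.55% in DEK. When it was removed and the rest rescaled, the median over all genes went from 0.05 to -0.07 (log2 fold change). Genes called higher made up 58.8% of all calls, 45.4% after quantile normalization and 42.8% without Rn45s. These are bulk samples, in which fewer cells of a type and less RNA per cell cannot be told apart.

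Hspa1a, Hspa1b and Hspb1 rose in DEK, and none of the 10 genes fell. By limma on log2(FPKM + 1), 3 of 10 were called higher and 0 lower at an adjusted p under 0.05, where 4.57% of the 12179 genes tested were called higher and 3.21% lower (7.78% in all). At an unadjusted p under 0.05, 8 of 10 were higher and 0 went the other way, against 16.9% and 12.2% of all genes tested. In 10 of 10 genes both DEK values lay above both YFP values, as they did in 34% of all genes tested, while the reverse held for 0 of 10 and for 26.9% of all genes. The median log2 fold change was 1.55 over the 10 genes and 0.05 over all genes tested. Together the 10 genes made up 0.252% and 0.239% of all FPKM in YFP replicates 1 and 2, and 2.33% and 0.611% in DEK replicates 1 and 2.

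**Figure D1:**
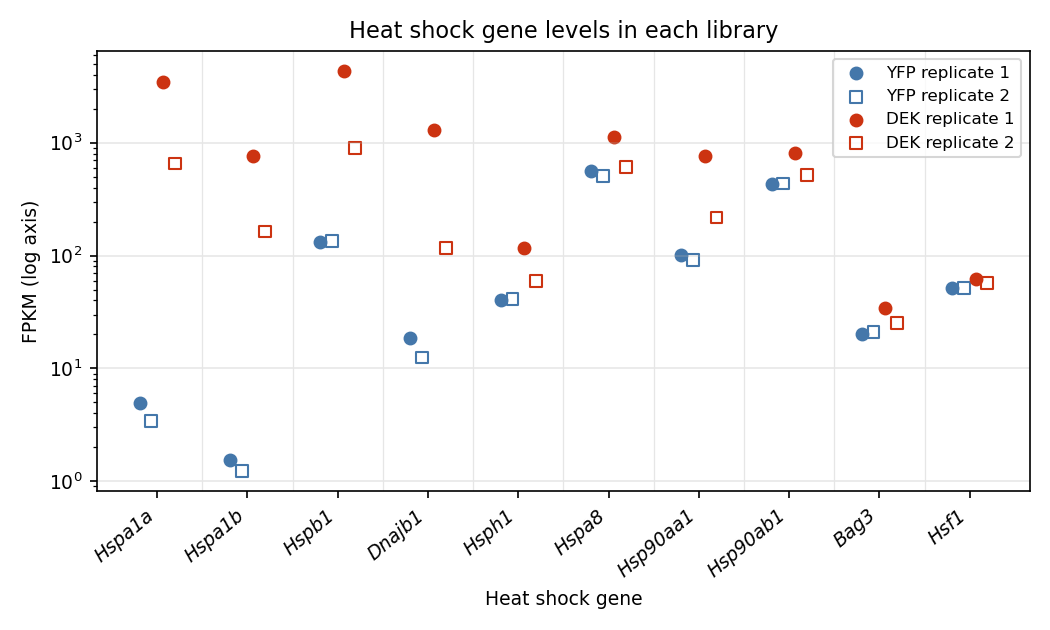
FPKM (log axis) of each of the 10 heat shock genes in YFP replicates 1 and 2 (blue) and DEK replicates 1 and 2 (red), with filled circles for replicate 1 and open squares for replicate 2. In every gene both red points lie above both blue points, and DEK replicate 1 lies above DEK replicate 2, widest apart in Dnajb1 (1290.02 and 117 FPKM).

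The inducible HSP70 copies rose the most of all genes tested. Hspa1a was at 4.91 and 3.41 FPKM in YFP replicates 1 and 2, against 3419 and 654 FPKM in DEK replicates 1 and 2. Its YFP levels ranked 8616 and 9418 among all genes of those libraries, and its DEK levels ranked 8 and 79. Both DEK libraries were far above both YFP libraries, at 822 and 157 times the YFP mean. Its log2 fold change came to 8.20 (SE 0.71, limma adjusted p = 0.00506), rank 1 of all genes tested. Hspa1b was at 1.55 and 1.22 FPKM in the YFP libraries, against 757 and 163 FPKM in DEK, which is 545 and 118 times the YFP mean (log2 fold change 7.21, SE 0.65, limma adjusted p = 0.00542, rank 2).

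Reads of these copies cannot always be told apart. Their longest annotated reading frames (GENCODE M21) agree at 99.43% of aligned bases, and 52.7% of the 75-base windows of the Hspa1a transcript also occur in that of Hspa1b. The ratio of Hspa1a to Hspa1b in FPKM was 3.16 and 2.79 in YFP and 4.52 and 4.01 in DEK, groups that did not overlap (exact two-sided permutation p = 0.333), and how the authors assigned shared reads is not given in the sources used here. With the constitutive Hspa8, in contrast, 0 of these windows are shared (73.93% identity of the reading frames). Hspa1a also lies opposite the annotated gene Gm20481 over 2225 bases, and whether strand was used is not given in the sources used here.

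Hspb1 encodes the small heat shock protein HSP25/HSP27, which holds unfolded proteins and binds actin. It was at 132 and 135 FPKM in the YFP libraries, against 4338 and 903 FPKM in DEK, and had the highest level of the 10 genes in both DEK libraries. DEK replicates 1 and 2 stood at 32.4 and 6.74 times the YFP mean (log2 fold change 3.88, SE 0.67, limma adjusted p = 0.0298). The calls of these 3 genes depended on the libraries. Leaving out YFP replicate 1, YFP replicate 2 or DEK replicate 1 on the same genes raised the limma adjusted p to 0.0584, 0.0756 and 0.0798 for Hspa1a, to 0.0629, 0.0778 and 0.0798 for Hspa1b, and to 0.124, 0.168 and 0.0798 for Hspb1. Without DEK replicate 2 the calls held. With DEK replicate 1 left out, the log2 fold changes were still 7.00, 6.11 and 2.74. In that fit the adjustment gave these 3 genes and Dek the same value, so it does not measure them singly. Calls were lost there over all genes, not in these genes alone. When the low filter was reapplied to the 3 libraries kept, all 3 genes were again called without DEK replicate 1, Hspa1a and Hspa1b without YFP replicate 1, and none without YFP replicate 2.

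Dnajb1, the J-domain protein that delivers clients to HSP70 and starts its ATP cycle, had the widest spread within DEK of the 10 genes. It was at 18.8 and 12.5 FPKM in the YFP libraries, against 1290.02 and 117 FPKM in DEK, that is 82.6 and 7.52 times the YFP mean. The log2 fold change of 4.58 (SE 1.02) did not pass (limma adjusted p = 0.0507), although both DEK libraries were above both YFP libraries. Without YFP replicate 1, without YFP replicate 2 and without DEK replicate 1 the limma adjusted p was 0.153, 0.235 and 0.0909, with a log2 fold change of 2.86 in the last. Without DEK replicate 2 it was 0.0351, with a log2 fold change of 6.31. With 1 DEK library left, that library is assumed to vary as the YFP libraries do. Hsph1, an HSP110 protein that exchanges the nucleotide of HSP70, was at 40.1 and 41.4 FPKM in the YFP libraries, against 117 and 59.4 FPKM in DEK (log2 fold change 1.01, SE 0.31, limma adjusted p = 0.0977). Its adjusted p was 0.251, 0.295 and 0.205 in the same first 3 leave-outs, with a log2 fold change of 0.53 without DEK replicate 1, and 0.0472 without DEK replicate 2. Bag3, which couples HSP70 to the removal of damaged proteins by autophagy, was at 20.1 and 21.03 FPKM in the YFP libraries, against 34.5 and 25.2 FPKM in DEK (log2 fold change 0.50, SE 0.19, limma adjusted p = 0.150). The groups of both genes did not overlap, but the 2 DEK libraries differed by more than DEK replicate 2 differed from YFP for Hsph1 and Bag3 alike. The same held for Dnajb1, Hsp90aa1, Hspa8 and Hsp90ab1.

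The constitutive copies Hspa8 and Hsp90ab1 had small differences, but larger ones than the inducible Bag3 (log2 fold change 0.50). The inducible and constitutive genes thus overlapped in their fold changes. Hspa8, the HSP70 present in all cells, was at 563 and 503 FPKM in the YFP libraries, against 1121 and 611 FPKM in DEK (log2 fold change 0.64, SE 0.29, limma adjusted p = 0.209). Hsp90ab1, the constitutive HSP90, was at 429.8 and 435 FPKM in the YFP libraries, against 814 and 513 FPKM in DEK (log2 fold change 0.58, SE 0.23, limma adjusted p = 0.169). DEK replicate 1 was high for both, and DEK replicate 2 stood at 1.15 and 1.19 times the YFP mean. The inducible HSP90 copy Hsp90aa1 was at 100.1 and 91.1 FPKM in the YFP libraries, against 760.4 and 217 FPKM in DEK (log2 fold change 2.08, SE 0.54, limma adjusted p = 0.0704). Its adjusted p was 0.192 and 0.269 with 1 YFP library left out, 0.0919 without DEK replicate 1 (log2 fold change 1.18) and 0.0350 without DEK replicate 2. Hsf1 itself, the transcription factor whose activity is set mainly by its protein state, was at 51.8 and 51.3 FPKM in the YFP libraries, against 61.5 and 56.8 FPKM in DEK (log2 fold change 0.19, SE 0.13, limma adjusted p = 0.378). Its difference was the smallest of the 10, and with Rn45s removed its log2 fold change was 0.05, beside a median of -0.07 over all genes.

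The balance of inducible to constitutive copies can be read within a library, where scaling cancels in a plain ratio of FPKM. The FPKM of Hspa1a and Hspa1b together was 1.15% and 0.921% of that of Hspa8 in YFP replicates 1 and 2, and 373% and 134% of it in DEK replicates 1 and 2. The log2 ratio, taken after 1 FPKM was added to each side, was -6.36 ± 0.17 in YFP and 1.16 ± 1.04 in DEK (SD, n = 2 each). The difference was 7.52, and it depended on the added value (7.74 with 0.1 FPKM and 6.83 with 5 FPKM). Hsp90aa1 was at 23.3% and 20.9% of Hsp90ab1 in YFP and at 93.4% and 42.3% in DEK. Here the log2 ratio was -2.17 ± 0.11 in YFP and -0.67 ± 0.81 in DEK, a difference of 1.4996. In both pairs the groups did not overlap, and the exact two-sided permutation test gave p = 0.333 for each, the smallest that 2 against 2 libraries allow, so this design cannot reach 0.05. Hsp90aa1 and Hsp90ab1 share 0 of the 75-base windows of their transcripts (75.34% identity of the reading frames).

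**Figure D2:**
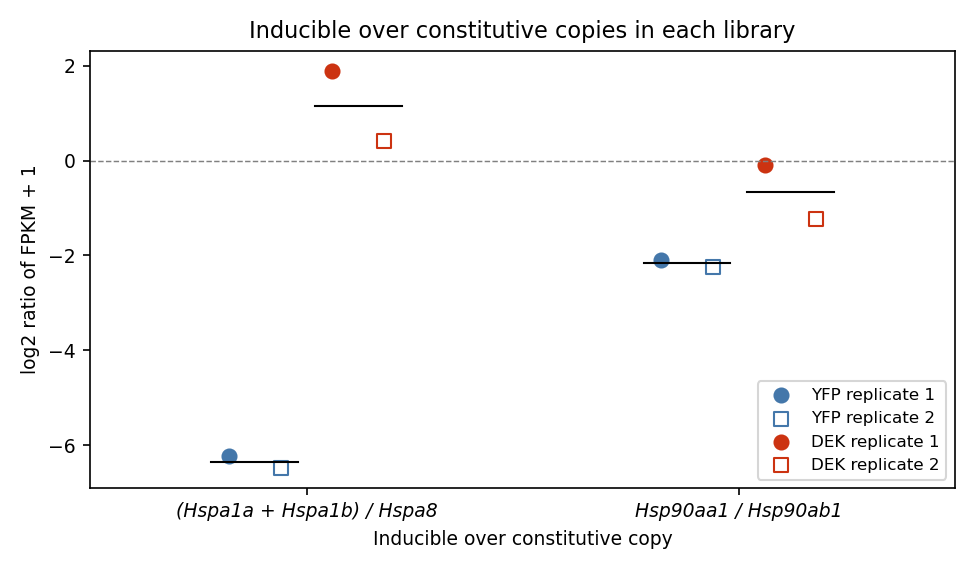
Log2 ratio of FPKM + 1 of the inducible over the constitutive copy in each library, for Hspa1a plus Hspa1b over Hspa8 and for Hsp90aa1 over Hsp90ab1, with blue for YFP, red for DEK, circles for replicate 1, squares for replicate 2 and bars at the group means. Inducible HSP70 passes above its constitutive copy (dashed line at 0) in both DEK libraries, while Hsp90aa1 stays below Hsp90ab1 in every library.

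The order of levels changed with the ratios. In both YFP libraries it ran Hspa8, Hsp90ab1, Hspb1, Hsp90aa1, Hsf1, Hsph1, Bag3, Dnajb1, Hspa1a, Hspa1b from high to low FPKM, and no neighbours in that order overlapped. In DEK, Hspb1 and Hspa1a led in both libraries. By DEK mean the order ran Hspb1, Hspa1a, Hspa8, Dnajb1, Hsp90ab1, Hsp90aa1, Hspa1b, Hsph1, Hsf1, Bag3. Of these neighbours Hspa1b and Hsph1 did not overlap, nor did Hsf1 and Bag3, while the others did. Dnajb1 stood just above Hspa8 in replicate 1 and below Hspa1b in replicate 2.

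The DEK libraries differed from each other in 1 direction. In 10 of 10 genes DEK replicate 1 was above DEK replicate 2, as it was in 37.4% of all genes tested. The FPKM in replicate 1 was from 1.08 times (Hsf1) to 10.98 times (Dnajb1) that in replicate 2, with 5.22 for Hspa1a, 4.63 for Hspa1b, 4.81 for Hspb1 and 3.50 for Hsp90aa1. On the log2(FPKM + 1) scale 7 of 10 genes exceeded 0.79, the 95th percentile of the absolute difference between DEK libraries over all genes tested, whose median was 0.20. Between the YFP libraries 0 of 10 exceeded the 95th percentile, and the widest difference was 0.55 for Dnajb1. Dek was also higher in DEK replicate 1 than in replicate 2.

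**Figure D3:**
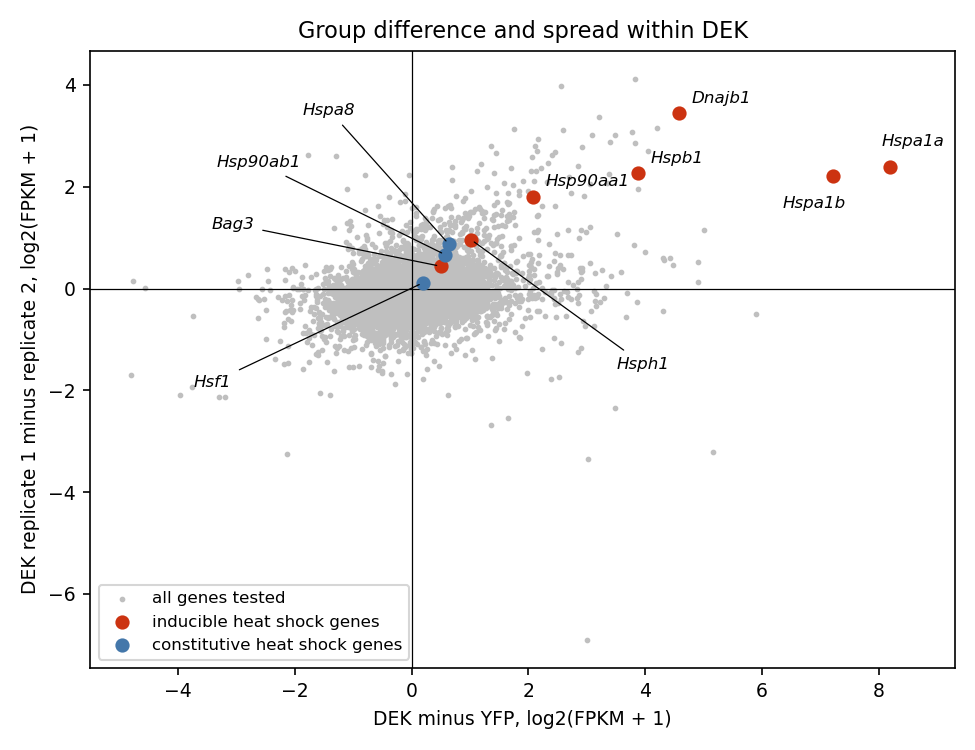
Difference of DEK from YFP (x axis) against the difference of DEK replicate 1 from replicate 2 (y axis), both on log2(FPKM + 1), for all genes tested (grey) with the inducible (red) and constitutive (blue) heat shock genes named. All 10 lie right of 0 and above 0, and of the 10 Dnajb1 has the widest spread within DEK at 3.45.

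Immediate early genes differed between the same libraries. These genes, such as Jun, Fos, Egr1 and Ier2, switch on within minutes of a stimulus. Of 18 tested, 6 were called higher by limma and 0 lower (4.57% and 3.21% of all genes tested), with a median log2 fold change of 3.06. All 18 of 18 were higher in DEK replicate 1 than in replicate 2, against 37.4% of all genes tested. Their summed level was 649 and 563 FPKM in the YFP libraries, against 11935 and 2853 FPKM in DEK, so the ratio of DEK replicate 1 to 2 was 4.18, beside 3.83 for the 10 heat shock genes. Their part in the heat shock result was not tested.

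Markers of satellite cells were present in all libraries: the 12 markers summed to 2026 and 1950.0 FPKM in the YFP libraries, against 2218 and 2790.4 FPKM in DEK, with 0 markers at 0, and 2 of 12 were called higher. Markers of other cells also differed between the groups. Beside the counts for all marker lists, limma called 4.57% of all genes tested higher and 3.21% lower. At an unadjusted p under 0.05 these shares were 16.9% and 12.2%. The 13 endothelial markers summed to 78.7 and 75.6 FPKM in YFP and 214 and 181 FPKM in DEK. Most of the YFP sums was Tek, which was not called (55.9 and 56.7 FPKM, against 78.8 and 66.5 FPKM in DEK). Limma called 10 of the 13 markers higher, and these 10 were under 1 FPKM in both YFP libraries, so they passed the low filter only through DEK and had to differ. Flt1, Kdr and Ptprb were at 0 in both YFP libraries. Passing the filter only through DEK also holds for the 6 called of 9 macrophage markers tested (12 in the table, summed 3.87 and 19.7 FPKM against 105 and 131 FPKM), with 6 and 8 of the 12 at 0 in YFP replicates 1 and 2, among them Tyrobp and C1qa, and 0 at 0 in DEK. It holds as well for the 2 called of 5 erythroid markers tested (9 in the table, summed 8.04 and 0.527 FPKM against 39.4 and 357 FPKM), with 3 and 6 of the 9 at 0 in YFP. Other lists gave 0 of 4 leukocyte markers called by limma (4 higher at an unadjusted p under 0.05, 9 in the table, summed 6.13 and 62.02 FPKM against 101 and 225 FPKM), 4 higher and 2 lower of 8 fibro-adipogenic markers (1179.6 and 932 FPKM against 979.6 and 1104 FPKM), 1 higher and 1 lower of 8 myofibre markers (155 and 140.2 FPKM against 297 and 235 FPKM) and 2 higher of 8 pericyte markers (638 and 673 FPKM against 491 and 724 FPKM). Of these calls Pi16 (fibro-adipogenic) and Myh11 (pericyte list) passed the filter only through DEK. The sums of endothelial, macrophage, leukocyte and erythroid markers in DEK replicate 1 were 1.18, 0.802, 0.449 and 0.110 times those in replicate 2, where the heat shock genes were at 3.83 times. The part of other cells in the heat shock result was not tested.

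Of 103 tested on the other chaperone, co-chaperone and ubiquitin lists, limma called 5 higher and 2 lower (4.85% and 1.94%, beside 4.57% and 3.21% of all genes tested). With 6 more heat-induced HSF1 targets that are not chaperones by these lists, 6 of 109 were called higher and 2 lower (5.5% and 1.83%). These counts moved with the processing. They were 8 and 3 with trimmed-mean scaling, 4 and 4 with quantile normalization and 3 and 3 with Rn45s removed. Without a variance trend they were 3 and 1, and with the replicate number as a block 4 and 1. In the main fit the median log2 fold change of the 109 genes was 0.18 beside 0.05 over all genes. At an unadjusted p under 0.05, 28 of 109 were higher and 7 lower (16.9% and 12.2% of all genes tested). Both DEK values lay above both YFP values in 51 of 109 and below them in 23 (34% and 26.9% of all genes tested). In 44 of 109 DEK replicate 1 was above replicate 2, as it was in 37.4% of all genes tested. Hspa4, an HSP110 protein, was at 17.98 and 14.1 FPKM in the YFP libraries, against 42.9 and 30.4 FPKM in DEK (log2 fold change 1.13, SE 0.22, limma adjusted p = 0.0380). Hspa1l, a testis-enriched HSP70, was at 0.512 and 0.561 FPKM in the YFP libraries, against 21.5 and 5.33 FPKM in DEK (log2 fold change 2.96, limma adjusted p = 0.0371). It was under 1 FPKM in both YFP libraries and passed the low filter only through DEK, so it had to differ and its call supports nothing. It also lies 546 bases from Hspa1a on the opposite strand and shares 7.09% of its 75-base windows with the Hspa1a transcript, so its value is uncertain. Hspa2, also testis-enriched and chosen after its values were seen, was at 1.52 and 1.92 FPKM in the YFP libraries, against 76.7 and 9.50 FPKM in DEK and did not pass (limma adjusted p = 0.0665).

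Of 16 HSP90 co-chaperones limma called 1 higher and 1 lower (6.25% each, beside 4.57% and 3.21% of all genes). Fkbp4, a hormone receptor immunophilin, rose from 55.7 and 58.01 to 87.2 and 95.02 FPKM (log2 fold change 0.67, limma adjusted p = 0.0403), while Fkbp5, its glucocorticoid-induced relative, fell from 76.2 and 96.7 to 12.04 and 14.1 FPKM (log2 fold change -2.63, limma adjusted p = 0.00353). The kinase co-chaperone Cdc37 was at 94.9 and 95.1 FPKM in the YFP libraries, against 97.2 and 109 FPKM in DEK. Of 18 other J-domain genes 0 were called by limma, with 2 above and 2 below at an unadjusted p under 0.05. The most abundant, Dnajc7, had a log2 fold change of -0.23. Dnajb4, a close relative of Dnajb1 chosen after its values were seen, was at 12.3 and 22.4 FPKM in the YFP libraries, against 186 and 35.02 FPKM in DEK (limma adjusted p = 0.117). Of 9 HSP70 exchange and client handling genes 0 were called by limma (2 higher at an unadjusted p under 0.05), and Stub1, a ubiquitin ligase of HSP70 clients, had a log2 fold change of 0.16.

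Other than Hspb1, 5 small heat shock proteins were tested (9 in the table). Limma called 0 of them higher and 1 lower, beside 4.57% and 3.21% of all genes tested. Hspb2 fell from 50.7 and 52.9 to 24.7 and 32.9 FPKM (log2 fold change -0.84, limma adjusted p = 0.0455). Cryab, alpha B-crystallin, was the most abundant of them at 531 and 464 FPKM in the YFP libraries, against 398 and 327 FPKM in DEK (log2 fold change -0.46, limma adjusted p = 0.136). Of 3 other heat shock factor genes tested 0 were called by limma (1 higher at an unadjusted p under 0.05), and Hsbp1, a small binding partner of HSF1, had a log2 fold change of -0.13.

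Of 14 cytosolic chaperonin and prefoldin genes 0 were called by limma (4 higher at an unadjusted p under 0.05). In DEK replicate 1, 0 of them were higher than in replicate 2, against 37.4% of all genes tested. The most abundant, Cct5, had a log2 fold change of 0.20. Of 10 mitochondrial chaperones limma called 1 higher and 0 lower (4.57% and 3.21% of all genes tested). At an unadjusted p under 0.05, 4 were higher and 0 lower (16.9% and 12.2% of all genes tested). The call was the HSP90 relative Trap1, from 166 and 142 to 246 and 247 FPKM (log2 fold change 0.67, limma adjusted p = 0.0455). The mitochondrial HSP70 Hspa9 was at 272 and 285 FPKM in the YFP libraries, against 401 and 417 FPKM in DEK (limma adjusted p = 0.0609). Of 16 endoplasmic reticulum chaperones limma called 1 higher and 0 lower. At an unadjusted p under 0.05, 8 were higher and 0 lower, and the same shares of all genes apply to both counts. The call was Calr, with a log2 fold change of 0.71 (limma adjusted p = 0.0422). The HSP70 of that compartment, Hspa5, was at 198 and 168 FPKM in the YFP libraries, against 1243 and 347 FPKM in DEK (limma adjusted p = 0.0950). Of 4 ubiquitin genes 0 were called by limma (1 higher at an unadjusted p under 0.05). Ubb, a heat-inducible polyubiquitin gene, was at 885 and 774 FPKM in the YFP libraries, against 2793 and 983 FPKM in DEK (limma adjusted p = 0.212).

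A list of 23 other genes known to be heat-induced through HSF1, which shares members with the lists above, had 3 called higher and 0 lower by limma (4.57% and 3.21% of all genes tested). At an unadjusted p under 0.05, 7 were above and 2 below (16.9% and 12.2% of all genes), and the median log2 fold change was 0.26 beside 0.05 over all genes. The immediate early gene Ier5, which activates HSF1, was at 0.502 and 0.327 FPKM in the YFP libraries, against 28.2 and 5.97 FPKM in DEK (log2 fold change 3.34, SE 0.63, limma adjusted p = 0.0366), and it too passed the low filter only through DEK. The other calls were Hspa4 and Fkbp4. In 13 of the 23 both DEK values were above both YFP values and in 5 both were below, which held for 34% and 26.9% of all genes tested. For the 109 genes together limma called 0 higher on the same genes without YFP replicate 1, without YFP replicate 2 and without DEK replicate 1, and 7 without DEK replicate 2. With the low filter reapplied it called 0, 0, 4 and 12.

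**Figure D4:**
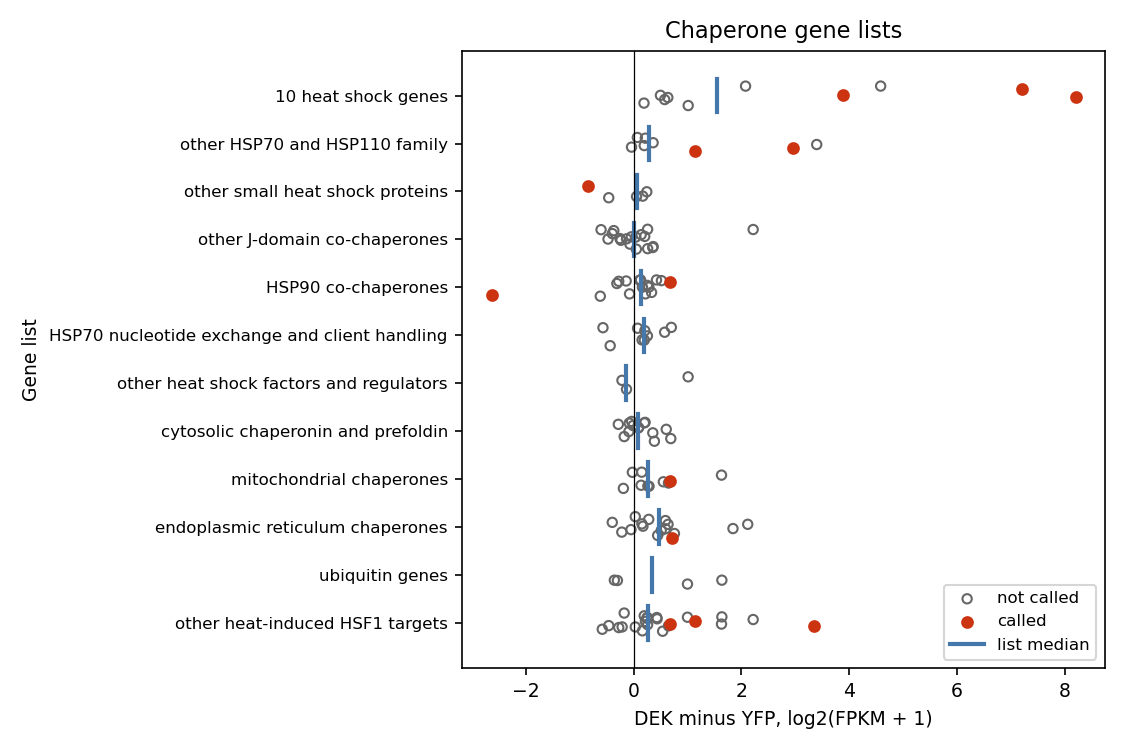
Log2 fold change of DEK over YFP on log2(FPKM + 1) for each tested gene of the 10 heat shock genes and of the other chaperone lists, with filled red points for genes called by limma, open points for the rest and a blue bar at each list's median. The median lies at 1.55 for the 10 genes and between -0.13 and 0.48 for the other lists.

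By Euclidean distance between centred log2(FPKM + 1) profiles over the 4 libraries, Hspa1b was 1.01 from Hspa1a. The nearest genes outside the 10 included Nr4a1 (3.32), Ptprb (3.56), Fabp4 (3.67) and Ly6c1 (3.98). Dnajb1 was at 3.69, Hspb1 at 4.33 and Hsf1 farthest of the 10 at 8.17. Ptprb and Ly6c1 were under 1 FPKM in both YFP libraries, so they passed the low filter only through DEK and had to differ. DEK replicate 1 exceeded replicate 2 by 1.15 in Nr4a1, 0.53 in Ptprb, 0.13 in Fabp4 and 0.59 in Ly6c1. On the same log2 scale this difference was 2.38 in Hspa1a and 2.26 in Hspb1. Nr4a1, an immediate early nuclear receptor, was at 2.503 and 2.26 FPKM in the YFP libraries, against 160.1 and 71.6 FPKM in DEK.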

How the data were processed

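STAR 2.5.3a, StringTie 1.3.3 and R 3.4.1, with build mm9, are the tools listed per the submitters' processing notes. The deposited values, 1 for each symbol in each library, were taken as FPKM made by the authors. That unit is inferred from that tool and from column totals that are not those of TPM. Annotation, filters and strand setting are not given in the sources used here. Polyadenylated RNA of fixed, sorted cells was amplified with a low-input template-switching kit, per the labels' protocols. All 4 value columns were used and 0 left out.

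Values were analysed as log2(FPKM + 1) with limma 3.58.1 in R 4.3.3. The low filter kept symbols reaching 1 FPKM in 2 libraries or more, which left 12179. DEK was set against YFP without covariates, with a variance trend, and two-sided p-values were adjusted over all 12179 by Benjamini-Hochberg. A fold change on this scale understates low genes. The fit was tested on simulated data. Trimmed-mean (TMM) scaling was written out for these values, and reading frames were aligned with Biopython 1.88. Alternatives changed the libraries, low filter, added value, scaling, block, variance model and threshold. Named genes were the 10 heat shock genes, Dek, up to 3 called genes and the most abundant gene of each chaperone list, the 2 most abundant genes in DEK of each marker list (not all described), and the 5 genes nearest to Hspa1a, of which 1 is not reported here. Genes outside this rule are given as list examples or said to be picked with their values known. The members, lists and alternatives were chosen with earlier results of these data known. Proteins were not analysed here.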

Additional observations from a re-analysis of the deposited data

How the results depend on the processing

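The direction of all 10 heat shock genes was kept under each of 20 alternatives, with log2 fold changes of 7.00 to 9.39 for Hspa1a, 5.81 to 8.31 for Hspa1b, 2.74 to 5.01 for Hspb1, 2.86 to 6.31 for Dnajb1 and 0.05 to 0.25 for Hsf1. Most alternatives could not have reversed it. With both DEK values above both YFP values, leaving out a library or changing the added value cannot change the sign. Changes of filter, block, variance model or threshold on all libraries left the fold changes as they were. Only trimmed-mean scaling, quantile normalization and the removal of Rn45s could have changed a direction. By limma Hspa1a and Hspa1b were called in 15 of 20 (adjusted p from 3.09e-05 to 0.142 and 0.146), Hspb1 in 13, Dnajb1 in 6, Hsp90aa1 in 4, Hsph1 in 3, Hspa8 and Hsp90ab1 in 1, and Bag3 and Hsf1 in 0. The number of the 10 called higher was 0 to 6 with 1 library left out, 2, 0, 5 and 8 when the low filter was then reapplied after leaving out the first or second YFP library or the first or second DEK library, in that order, 0 with no low filter (4 at an unadjusted p under 0.05), 2 with robust limma and 6 at an adjusted p under 0.1. Over all genes, calls were 0 to 139 higher and 0 to 45 lower with 1 library left out, 132, 67, 177 and 371 higher and 36, 16, 125 and 409 lower with the filter reapplied in the same order, 96 higher and 10 lower with no low filter, 1237 and 859 at an adjusted p under 0.1, and 260 lower at 2-fold or more. The cause was not tested beyond what fewer libraries or more genes bring by construction. With the replicate number as a block limma called 4 of the 10 higher, Dnajb1 among them (adjusted p = 0.0282), and 383 genes higher and 235 lower in all. Replicates 1 deviated with a correlation of 0.06 over genes, so the numbers give no pairing. The difference in the log2 ratio to Hspa8 was 6.57 with Hspa1b alone. Depth is unknown, so no detection limit is given.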
